A study of Mus musculus with 6 samples.

Results

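The CD14, MD-2, MD-1 and RP105 co-receptors of TLR4, the receptor for bacterial lipopolysaccharide (LPS), and the adaptors and kinases that relay its signal were described at the RNA level in liver F4/80-positive cells. The 10 genes were Cd14, Ly96, Ly86, Cd180, Myd88, Ticam1, Ticam2, Tirap, Irak1 and Irak4, which were found by their symbols among the 49315 Ensembl genes counted, and all 10 were among the 16134 genes with enough counts for a test. Poly-A RNA of 6 mice was sequenced, with 1 library per mouse, 3 of them WT and 3 Lpcat3KOMac. Lpcat3KOMac mice were Lpcat3 fl/fl and carried 1 LysM Cre allele, and WT mice were their Lpcat3 fl/fl littermates without Cre, so that the controls also carried the floxed Lpcat3 alleles. All mice were C57BL/6N, entered the diet at 8 to 12 weeks of age and ate a high-fat diet (HFD, 60% fat) for 16 weeks, without any LPS or other treatment. Lpcat3 encodes an enzyme that places polyunsaturated fatty acids into membrane phospholipids. LysM Cre acts in myeloid cells as a whole and not in Kupffer cells alone. The cells were taken with anti-F4/80 magnetic beads after collagenase perfusion of the liver, which enriches the macrophages resident in the liver, Kupffer cells.

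LPS that enters the liver by the portal vein is met first by Kupffer cells. CD14 hands LPS to MD-2, the product of Ly96, which sits on the outer part of TLR4 and holds the lipid. RP105, the product of Cd180, resembles the outer part of TLR4 and pairs with MD-1, the product of Ly86, and this pair is known to restrain TLR4 signalling in macrophages. Inside the cell, TIRAP brings MyD88 to TLR4 at the plasma membrane, and MyD88 gathers IRAK4 and then IRAK1, the start of the branch that activates NF-kappaB. From endosomes, TRAM (Ticam2) connects TLR4 to TRIF (Ticam1), the start of the branch that leads to type I interferon.

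Total counts lay between 44954224 and 71392812 per library, and the 10 genes together took 0.0923% to 0.122% of them. The lowest count of any of the 10 in any library was 1026, for Ly96, so that counting error was at most 3.12% (coefficient of variation). Levels are counts scaled to library size (CPM) with the trimmed mean of M values (TMM), and a log2 fold change is Lpcat3KOMac minus WT, with its standard error (SE). Lpcat3 was at 34% of its WT level in Lpcat3KOMac libraries (85.0, 66.2 and 61.2 CPM in WT mice 1 to 3, 19.6, 33.3 and 19.4 CPM in Lpcat3KOMac mice 1 to 3), so that its RNA was reduced and not absent in these preparations. Lyz2, into which LysM Cre is inserted, was at 37.4%. Each of the 7 Kupffer cell markers examined was at 122.9 CPM or more in every library, and all 7 were lowest in Lpcat3KOMac mouse 2. There Marco was at 148.5 CPM and Timd4 at 122.9 CPM, against 999 to 3168 CPM and 344 to 938 CPM in the other libraries. Hepatocyte transcripts set 2 libraries apart: the 6 hepatocyte markers summed to 20000 CPM in WT mouse 1 and 12770 CPM in Lpcat3KOMac mouse 2, against 1771 to 4658 CPM in the other 4. Values without these 2 libraries are given below for some of the 10 genes and for counts over the 10. They are not given for the partner ratios, the markers or single genes of the wider pathway. The mice are separate animals, and the counts of every pair of libraries differed by more than sampling noise.

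The pair of RP105 and MD-1 is encoded by genes on the same chromosome, of which Ly86 alone was free of overlap between genotypes, as given below. The 250 bases before the start of each are shown so that the 2 partners can be set side by side, as RefSeq gives them on GRCm38.p6 (Ly86 at chr13:37345095-37345344 and Cd180 at chr13:102693308-102693557, both on the plus strand). Capitals mark the core letters of ETS factor sites, GGAA on either strand (TTCC when read on the plus strand). PU.1, the ETS factor of macrophages and B cells, binds such sites, and the motif and the pair were chosen after the values below had been seen.
Ly86: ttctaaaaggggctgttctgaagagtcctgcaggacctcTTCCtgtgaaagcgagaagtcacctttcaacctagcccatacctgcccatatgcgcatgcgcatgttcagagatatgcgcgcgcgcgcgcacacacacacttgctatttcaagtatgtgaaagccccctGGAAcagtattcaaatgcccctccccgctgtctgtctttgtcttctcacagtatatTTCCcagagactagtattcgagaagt
Cd180: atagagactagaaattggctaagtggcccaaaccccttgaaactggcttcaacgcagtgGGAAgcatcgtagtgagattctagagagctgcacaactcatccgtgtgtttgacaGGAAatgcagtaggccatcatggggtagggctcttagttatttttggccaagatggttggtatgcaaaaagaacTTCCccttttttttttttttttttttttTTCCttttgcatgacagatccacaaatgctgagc
The Ly86 window held 3 such matches and the Cd180 window 4. Of 32851 promoter windows of this length, 93.4% held at least 1 match and the median was 3, so that neither window stood out by this measure. Neither window held TATAAA (12.4% of windows), the AP-1 letters TGANTCA (6.75%) or a kappaB site (7.25%) on either strand. Among the 7 of the 10 genes with a window, a kappaB match was found for Irak1 alone, with 1 match in 250 bases. For Tirap, Myd88, Irak4 and Ticam1 no RefSeq start was that of the counted gene. Myd88 was the furthest off (119340018 against 119341411), so that its window lies inside the counted gene. The same holds for both Tirap windows (starts at 35199965 and 35199905 against 35200291).

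By the quasi-likelihood test of edgeR after Benjamini-Hochberg adjustment, 0 of the 10 genes were called different between genotypes. Nor was any other gene called (0% of the 16134 tested). Lpcat3 and Lyz2, at 34% and 37.4% of WT without overlap, were not called either (adjusted p of 0.9999 each by this test). A gene not called here is thus not shown to be unchanged. DESeq2 called 0 of the 10 as well, against 12 of 14476 genes (0.0829%), among which were none of the LPS pathway genes examined here. At an unadjusted p under 0.05 the same edgeR test named 3 of the 10, against 2.64% of all genes in either direction. These were Cd14, Ly96 and Ly86, all lower in Lpcat3KOMac cells, a direction in which 1.57% of all genes passed. The same 3 were the members for which every Lpcat3KOMac library lay below every WT library, as did 5.2% of all genes tested. No member had every Lpcat3KOMac library above every WT library (2.29% of all genes). With libraries scaled by total counts in place of TMM, Ly96 alone of the 3 was free of overlap, and Ticam1 and Irak1 were higher without overlap. The 3 genes are the LPS-carrying co-receptor, the LPS-binding subunit of the receptor and the partner of RP105, and none is an adaptor or a kinase. Since the 10 genes were chosen with earlier results of these data known, these counts are a description.

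Cd14 (ENSMUSG00000051439, chromosome 18 of GRCm38, 36725074 to 36726736, minus strand) measured 169.9, 229 and 203 CPM in WT mice 1 to 3, against 149.7, 108 and 153 CPM in Lpcat3KOMac mice 1 to 3. The genotypes did not overlap, and Lpcat3KOMac mouse 2 was the lowest of all. The WT mean was 201 ± 29.8 CPM (SD, n = 3), and Lpcat3KOMac cells, at 137 ± 24.9 CPM (SD, n = 3), held 68.3% of it. The log2 fold change was -0.55 (SE 0.18, 95% interval -0.99 to -0.11), the largest in size of the 10 genes, with an unadjusted p of 0.0230 and an adjusted p of 0.9999 by the quasi-likelihood test of edgeR after Benjamini-Hochberg adjustment. Within each genotype, Cd14 was lowest in the library richest in hepatocyte transcripts. Without these 2 libraries every Lpcat3KOMac library was still below every WT library. The same held for 3456 of the 16134 genes tested, with 3284 higher without overlap (41.8% in all). In a bulk preparation, fewer cells that express a gene and less RNA of it per cell cannot be told apart.

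Ly96 (ENSMUSG00000025779, chromosome 1, 16688051 to 16709611, plus strand) measured 25.4, 27.2 and 24.7 CPM in WT mice 1 to 3, against 21.9, 19.8 and 22.3 CPM in Lpcat3KOMac mice 1 to 3. The values were tight in both genotypes and did not overlap. The means were 25.7 ± 1.27 CPM (SD, n = 3) and 21.3 ± 1.36 CPM (SD, n = 3), so that Lpcat3KOMac cells held 82.9% of the amount in WT. The log2 fold change was -0.27 (SE 0.092, 95% interval -0.50 to -0.04), with an unadjusted p of 0.0274 and an adjusted p of 0.9999 by the quasi-likelihood test of edgeR after Benjamini-Hochberg adjustment. Tlr4 itself (ENSMUSG00000039005, chromosome 4, 66827584 to 66930284, plus strand), which MD-2 serves, measured 105, 118 and 101 CPM in WT mice, against 122.6, 110.4 and 100.4 CPM in Lpcat3KOMac mice. The genotypes overlapped for Tlr4, with a log2 fold change of 0.04 (SE 0.11, 95% interval -0.22 to 0.31).

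Ly86 (ENSMUSG00000021423, chromosome 13, 37345345 to 37419036, plus strand), the highest of the 10 in CPM and also per exonic length, measured 326, 373 and 402 CPM in WT mice 1 to 3, against 298, 304 and 290.5 CPM in Lpcat3KOMac mice 1 to 3. The Lpcat3KOMac mice were nearly alike and all lower than the WT mice, which were more spread out. The means were 367 ± 38.6 CPM (SD, n = 3) and 297 ± 6.55 CPM (SD, n = 3), or 81.1% of WT, and the log2 fold change was -0.30 (SE 0.10, 95% interval -0.55 to -0.05). Its unadjusted p was 0.0248 and its adjusted p 0.9999 by the quasi-likelihood test of edgeR after Benjamini-Hochberg adjustment. Its partner Cd180 (ENSMUSG00000021624, chromosome 13, 102693558 to 102739629, plus strand) measured 108, 174 and 156 CPM in WT mice, against 159, 139 and 140.0 CPM in Lpcat3KOMac mice. The genotypes overlapped fully for Cd180, with WT mouse 1 the lowest and WT mouse 2 the highest of all. The log2 fold change of 0.00 (SE 0.19) had a 95% interval of -0.46 to 0.47, which allows levels from 0.725 to 1.39 times WT. Left without WT mouse 1, it was -0.17, and without both hepatocyte-rich libraries -0.14.

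**Figure D1:**
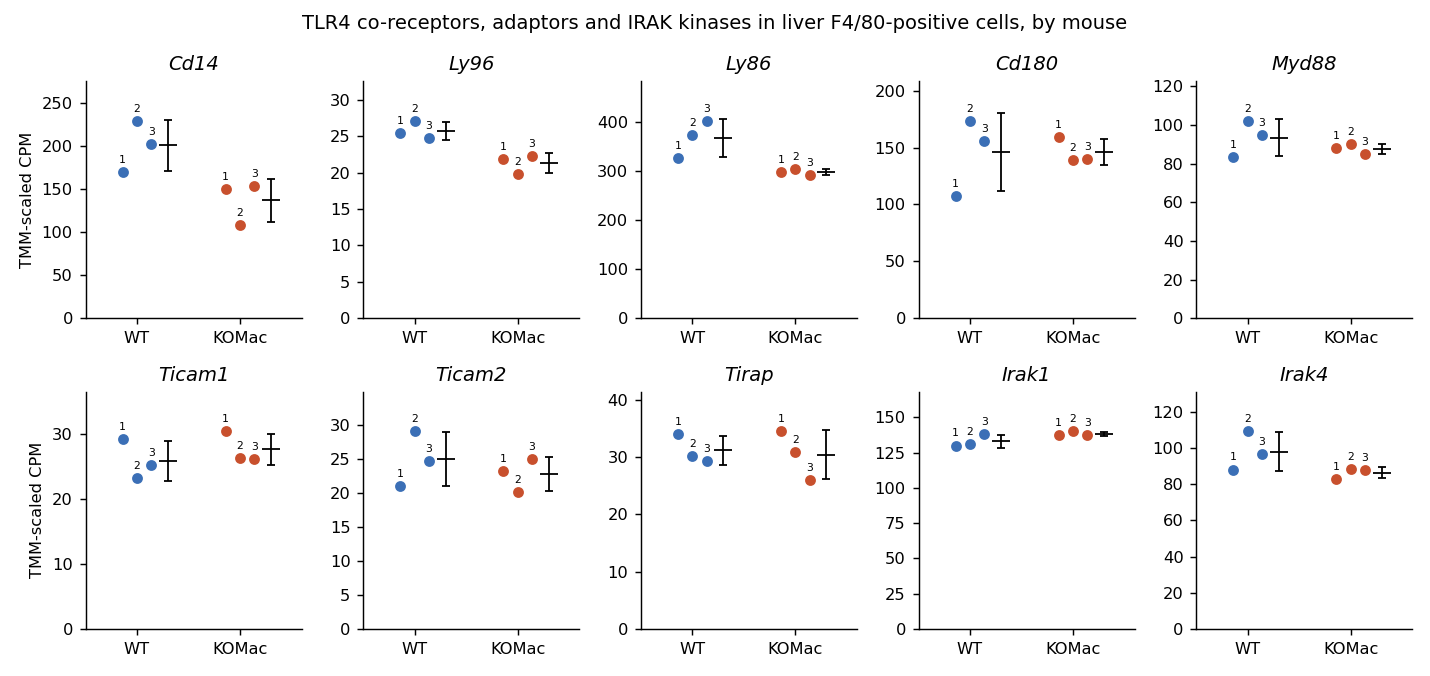
TMM-scaled CPM (vertical axis, from 0) of each of the 10 genes in the 3 WT (blue) and 3 Lpcat3KOMac (orange) mice, where each point is 1 mouse with its replicate number and the horizontal line with bars is the mean ± SD. The 3 Lpcat3KOMac points lie below the 3 WT points for Cd14, Ly96 and Ly86, and the genotypes overlap for the other 7.

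The adaptors, which pass the signal on from the receptor, overlapped between the genotypes. Myd88 (ENSMUSG00000032508, chromosome 9, 119335934 to 119341411, minus strand), the adaptor of the NF-kappaB branch, measured 83.2, 102 and 94.7 CPM in WT mice 1 to 3, against 88.2, 89.9 and 85.0 CPM in Lpcat3KOMac mice 1 to 3. WT mouse 1 was the lowest of the 6, and the other 2 WT mice were the highest. The log2 fold change was -0.09 (SE 0.097, 95% interval -0.33 to 0.15). Without WT mouse 1 the genotypes did not overlap for Myd88, with a log2 fold change of -0.17. Neither did they for 32.7% of all genes tested, 2506 of them lower and 2767 higher. Tirap (ENSMUSG00000032041, chromosome 9, 35184551 to 35200291, minus strand), which brings MyD88 to the membrane, measured 34.1, 30.2 and 29.4 CPM in WT mice, against 34.5, 30.8 and 26.0 CPM in Lpcat3KOMac mice. Its values were interleaved, with a log2 fold change of -0.04 (SE 0.13, 95% interval -0.36 to 0.29).

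Ticam1 (ENSMUSG00000047123, chromosome 17, 56269319 to 56276786, minus strand), which encodes TRIF, the adaptor of the interferon branch, measured 29.1, 23.1 and 25.2 CPM in WT mice 1 to 3, against 30.4, 26.3 and 26.2 CPM in Lpcat3KOMac mice 1 to 3. WT mouse 1 lay among the Lpcat3KOMac mice and the other 2 WT mice below them. The log2 fold change was 0.10 (SE 0.12, 95% interval -0.20 to 0.40). Without WT mouse 1 it was 0.19 with no overlap, as for 32.7% of all genes in either direction. Ticam2 (ENSMUSG00000056130, chromosome 18, 46559155 to 46574533, minus strand), which encodes TRAM, the bridge to TRIF, measured 21.1, 29.1 and 24.8 CPM in WT mice, against 23.3, 20.2 and 25.1 CPM in Lpcat3KOMac mice. The genotypes overlapped, with a log2 fold change of -0.13 (SE 0.15, 95% interval -0.51 to 0.25). Of the 3928 exonic bases of Ticam2, 838 are shared with Tmed7 on the same strand, which had 7653 to 11730 counts per library and a log2 fold change of 0.03, so that the level of Ticam2 is uncertain.

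The kinases overlapped between the genotypes too. Irak4 (ENSMUSG00000059883, chromosome 15, 94543643 to 94581815, plus strand), the kinase that MyD88 recruits, measured 88.2, 109 and 96.8 CPM in WT mice 1 to 3, against 83.0, 88.4 and 87.8 CPM in Lpcat3KOMac mice 1 to 3. Only WT mouse 1, at 88.2 CPM, reached into the range of the Lpcat3KOMac mice. The log2 fold change was -0.18 (SE 0.10, 95% interval -0.43 to 0.06). Without WT mouse 1 it was -0.25, with no overlap, as for 32.7% of all genes in either direction. Irak1 (ENSMUSG00000031392, chromosome X, 74013914 to 74023918, minus strand), the kinase that IRAK4 phosphorylates, measured 130, 131 and 138 CPM in WT mice, against 137, 140.1 and 137 CPM in Lpcat3KOMac mice. It was the steadiest of the 10, with an SD between mice of the same genotype of 0.037 on the log2 scale, lower than in all but 0.7% of the genes tested. Its log2 fold change of 0.05 (SE 0.068) had a 95% interval of -0.11 to 0.22, which allows levels from 0.925 to 1.17 times WT.

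Several of these genes share exonic bases with a neighbour on the opposite strand, and the strand setting of the counting is not given in the sources used here. This holds for Irak4 with Twf1 (395 bases, 5939 to 8338 counts of Twf1), for Myd88 with Acaa1a (290 bases, 5203 to 10989 counts) and for Cd180 with Mast4 (182 bases, 645 to 997 counts). Tirap shares 39 bases with Srpr (5351 to 13070 counts) and 446 with Gm39318, which had at most 12 counts. Cd14, Ly96, Ly86 and Ticam1 share no exonic bases with another counted gene.

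Set side by side, 7 of the 10 log2 fold changes were below 0 and 3 above it, with a median of -0.11. Over all 16134 genes 59.9% were below 0 and the median was -0.04. The 4 co-receptors had a median of -0.29 and the 6 adaptors and kinases a median of -0.06, with a range of -0.18 to 0.10. With any 1 mouse left out, Cd14 stayed between -0.66 and -0.39, Ly96 between -0.30 and -0.20 and Ly86 between -0.38 and -0.23. The unadjusted p of these 3 depended on single mice. Without WT mouse 2, 0 of the 10 genes had an unadjusted p under 0.05, against 1.37% of all genes tested. This number was 1 without WT mouse 3 (Ly96, against 3.28% of all genes), without Lpcat3KOMac mouse 1 (Cd14, 1.09%) and without Lpcat3KOMac mouse 3 (Cd14, 2.31%). It was 2 without Lpcat3KOMac mouse 2 (Cd14 and Ly86, against 1.48% of all genes). Without WT mouse 1 it was 4, with Irak4 added, and the share of all genes was 12.3%.

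**Figure D2:**
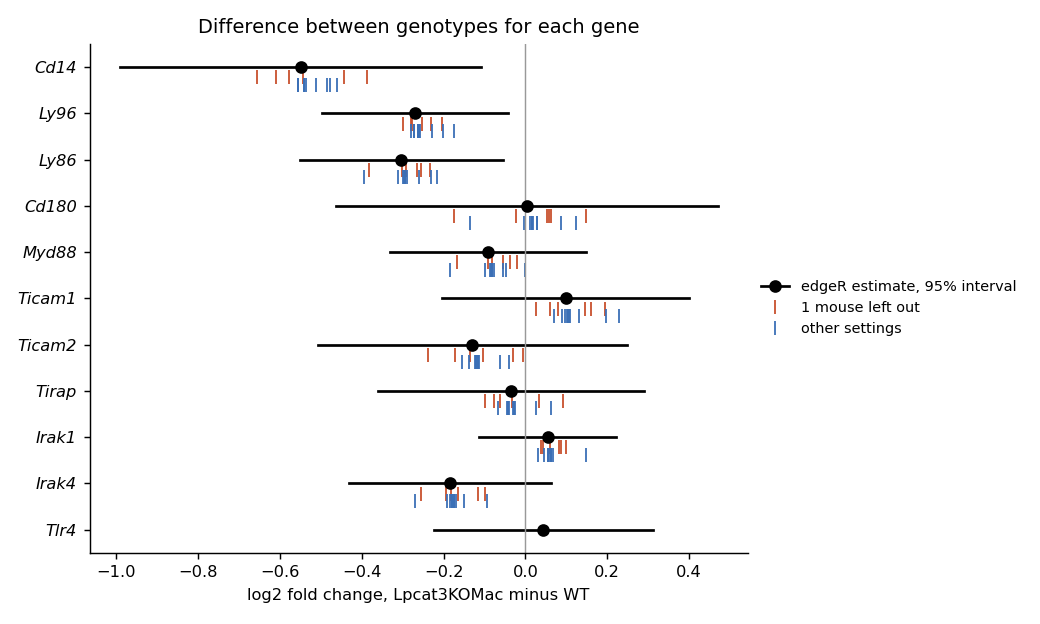
Log2 fold change (horizontal axis, Lpcat3KOMac minus WT) of the 10 genes and Tlr4, with the edgeR estimate and its 95% interval in black, the 6 values with 1 mouse left out as orange ticks and the values under the other settings as blue ticks (ticks were drawn for the 10 genes, not for Tlr4). The intervals of Cd14, Ly96 and Ly86 end below 0, between -0.11 and -0.04, before any adjustment for the number of genes, and those of the other genes include 0.

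Divided by exonic length, levels can be compared between genes. Per kilobase of exon, Ly86 was the highest in WT cells at 368 ± 38.7 CPM (SD, n = 3), followed by Cd14 at 128 ± 19.0 CPM (SD, n = 3). The mice of neighbouring genes did not overlap at these 2 steps. Next came Myd88 at 36.3, Cd180 at 32.3 and Irak1 at 28.2 CPM per kilobase, where neighbours overlapped between mice. Ly96 followed at 25.2, Irak4 at 19.5 and Tlr4 at 19.4 CPM per kilobase, and the ranges of Irak4 and Tlr4 overlapped. At the lower end were Ticam1 at 8.63, Ticam2 at 6.36 and Tirap at 6.33 CPM per kilobase, with overlap between Ticam2 and Tirap. Transcripts of the co-receptor CD14 and of MD-1 thus stood well above that of TLR4, and those of the adaptors TIRAP, TRAM and TRIF below it. The order in Lpcat3KOMac cells was the same except that Tlr4 passed Irak4 and Tirap passed Ticam2, pairs whose WT mice overlapped.

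**Figure D3:**
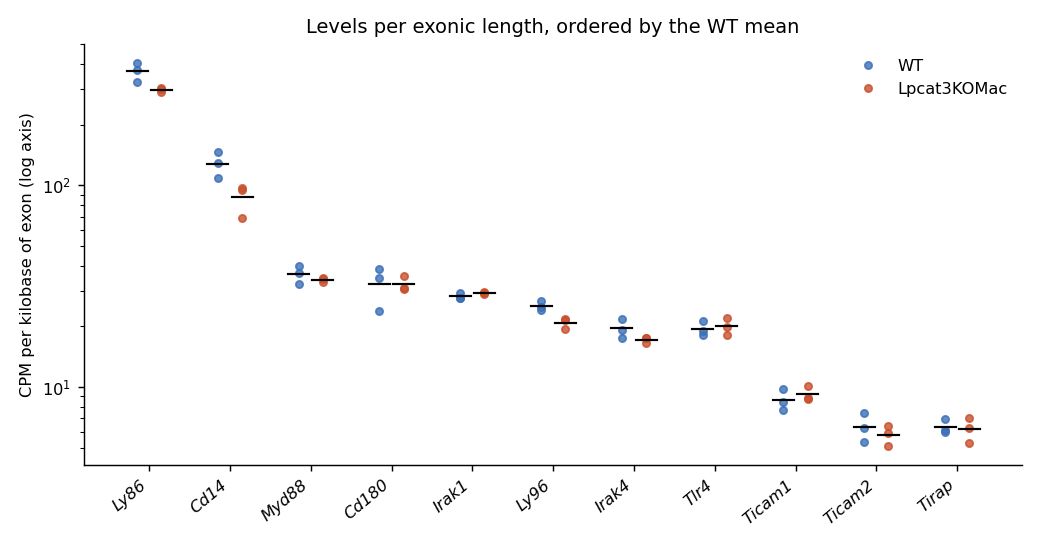
CPM per kilobase of exon (vertical log axis) of the 10 genes and Tlr4 in each WT (blue) and Lpcat3KOMac (orange) mouse, with the mean of each genotype as a line and genes ordered by the WT mean. Ly86 and Cd14 lie above the rest in every mouse, and Ticam1, Ticam2 and Tirap lie below the rest.

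Ratios of partner transcripts within a library do not depend on library scaling, and 7 were compared with a two-sided exact permutation test over mice, whose smallest p with 3 mice against 3 is 0.1. Per Tlr4 count there were 0.241, 0.231 and 0.246 Ly96 counts in WT mice 1 to 3 and 0.179, 0.179 and 0.223 in Lpcat3KOMac mice 1 to 3. For Cd14 the ratio to Tlr4 was 1.61, 1.95 and 2.02 in WT and 1.22, 0.983 and 1.53 in Lpcat3KOMac mice. Neither ratio overlapped between genotypes. Tlr4, with 5556 exonic bases, is longer than Ly96 (1021) and Cd14 (1572), and the ratios are not corrected for the trend with length given below. The log2 differences were -0.31 for Ly96 and -0.60 for Cd14, each at the smallest p of 0.1 (exact permutation test, 0.233 after Benjamini-Hochberg adjustment over the 7 ratios). Irak1 per Irak4 was at 1.47, 1.198 and 1.43 in WT and at 1.65, 1.59 and 1.57 in Lpcat3KOMac mice, a log2 difference of 0.23 with no overlap (exact permutation p = 0.1, adjusted p = 0.233). Each kinase alone did overlap between genotypes.

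Ly86 per Cd180 was at 3.03, 2.15 and 2.58 in WT mice 1 to 3 and at 1.87, 2.19 and 2.07 in Lpcat3KOMac mice 1 to 3. WT mouse 2 lay below the highest Lpcat3KOMac mouse, so that the ratios overlapped, with a log2 difference of -0.33 (exact permutation p = 0.2, adjusted p = 0.35). The 2 genes whose upstream windows are printed above thus had log2 fold changes of -0.30 and 0.00, and the difference between these was not past the spread between mice. The remaining ratios also overlapped. The log2 difference was -0.01 for Cd180 to Tlr4 (exact permutation p = 1, adjusted p = 1), -0.22 for Ticam2 to Ticam1 (exact permutation p = 0.6, adjusted p = 0.84) and 0.04 for Tirap to Myd88 (exact permutation p = 0.9, adjusted p = 1).

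**Figure D4:**
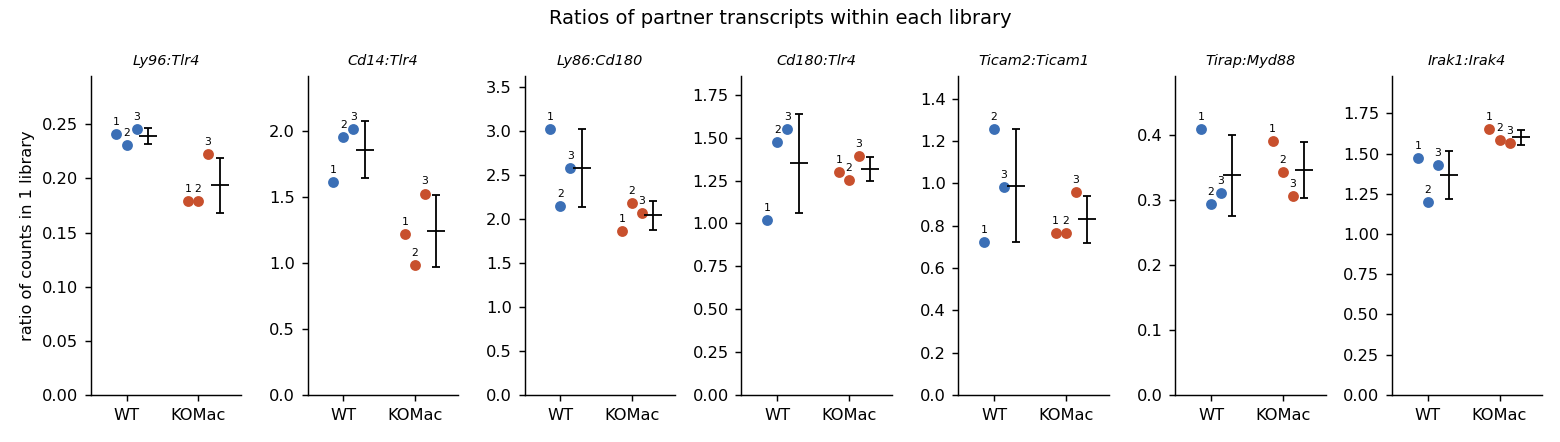
Ratio of counts of partner transcripts (vertical axis, from 0) within each of the 3 WT (blue) and 3 Lpcat3KOMac (orange) libraries, where each point is 1 mouse with its replicate number and the line with bars is the mean ± SD of the ratios. The genotypes do not overlap for Ly96 to Tlr4 and Cd14 to Tlr4, both lower in Lpcat3KOMac mice, and for Irak1 to Irak4, which is higher.

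The make-up of the preparations was set beside these values. The 7 Kupffer cell markers summed to 25710 to 34910 CPM in WT and 19510 to 28100 CPM in Lpcat3KOMac libraries, and 1 of the 7, Clec4f, was lower in every Lpcat3KOMac library. All 7 had a log2 fold change below 0, with a median of -0.24 and a range of -0.46 to -0.10, beside -0.27 for Ly96 and -0.30 for Ly86, and 1 of them passed an unadjusted p under 0.05. Adgre1, which encodes the F4/80 antigen of the sort, measured 2135, 3051 and 2380 CPM in WT mice, against 2322, 1985 and 2390 CPM in Lpcat3KOMac mice (log2 fold change -0.18, SE 0.16). As a percentage of the Adgre1 count in the same library, a scale chosen after seeing the data, Cd14 was at 7.96, 7.52 and 8.52 in WT and at 6.45, 5.47 and 6.41 in Lpcat3KOMac mice, without overlap. On this scale Cd14 was the only gene of the 10 without overlap. Of the 16134 genes tested, 75 were lower and 864 higher without overlap on it (5.82% in all). Ly96 and Ly86 overlapped, with log2 differences of -0.11 and -0.13. Ticam2 was at 0.954% to 1.05% of Adgre1 in all 6 libraries.

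Most markers of other cells had log2 fold changes above 0, in the direction opposite to Cd14, Ly96 and Ly86. All 5 sinusoidal endothelial markers were above 0, with a median of 0.73 and 1 at an unadjusted p under 0.05, and summed to 643 to 739 CPM in WT and 713 to 961 CPM in Lpcat3KOMac libraries. All 5 stellate cell markers were above 0 as well, with a median of 0.36 and sums of 55.4 to 157 CPM and 114 to 202 CPM. So were all 5 monocyte markers, with a median of 0.64 and 2 at an unadjusted p under 0.05, and they summed to 22.0 to 99.4 CPM and 60.5 to 89.3 CPM, with 1 of 5, Chil3, higher in every Lpcat3KOMac library. Of the 5 neutrophil markers 4 were tested, all above 0 with a median of 0.90, 1 at an unadjusted p under 0.05, and their low sum was higher in every Lpcat3KOMac library, at 6.22 to 7.77 CPM against 3.14 to 5.01 CPM. Of these S100a8 was so by itself, while the defining Ly6g was at or near 0 (at most 0.0638 CPM).

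The T and NK cell markers summed to at most 2.57 CPM, with 4 of 5 above 0, 1 at an unadjusted p under 0.05, and Cd3d and Klrb1c higher in every Lpcat3KOMac library. B cell markers (2 of 5 above 0, median -0.06) summed to 15.7 to 29.2 CPM in WT and 21.1 to 21.8 CPM in Lpcat3KOMac libraries. Dendritic cell markers (3 of 5 above 0, median 0.05) summed to 16.3 to 54.6 CPM and 26.5 to 34.2 CPM. All 6 hepatocyte markers were below 0, with a median of -0.33, but this direction rests on WT mouse 1. Their sums were 20000, 1838 and 1771 CPM in WT mice 1 to 3, against 4658, 12770 and 4476 CPM in Lpcat3KOMac mice 1 to 3. The sums overlapped between genotypes, and every Lpcat3KOMac library was above WT mice 2 and 3. The part of any of these cells, Kupffer cells included, in the values of Cd14, Ly96 and Ly86 was not tested.

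Ly86, Ly96 and Cd14, with 997, 1021 and 1572 exonic bases, are the 3 shortest of the 10 genes, and all 3 are well below the median of 3581 bases of the genes tested. Over the 16134 genes tested, log2 fold change and exonic length had a Spearman correlation of 0.192 across genes, which are not independent replicates, so that shorter genes tended to lower values in Lpcat3KOMac libraries. With an offset for the trend of each library with length, the log2 fold changes were -0.49 for Cd14, -0.20 for Ly96 and -0.23 for Ly86. Cd14 and Ly86 then still had an unadjusted p under 0.05, as did 2.03% of all genes, and Ly96 no longer did. The length-corrected values of the 3 did not overlap between genotypes, nor did those of 6.30% of all genes, and for Ly96 the closest mice were at 23.2 CPM in WT and 22.9 CPM in Lpcat3KOMac.

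**Figure D5:**
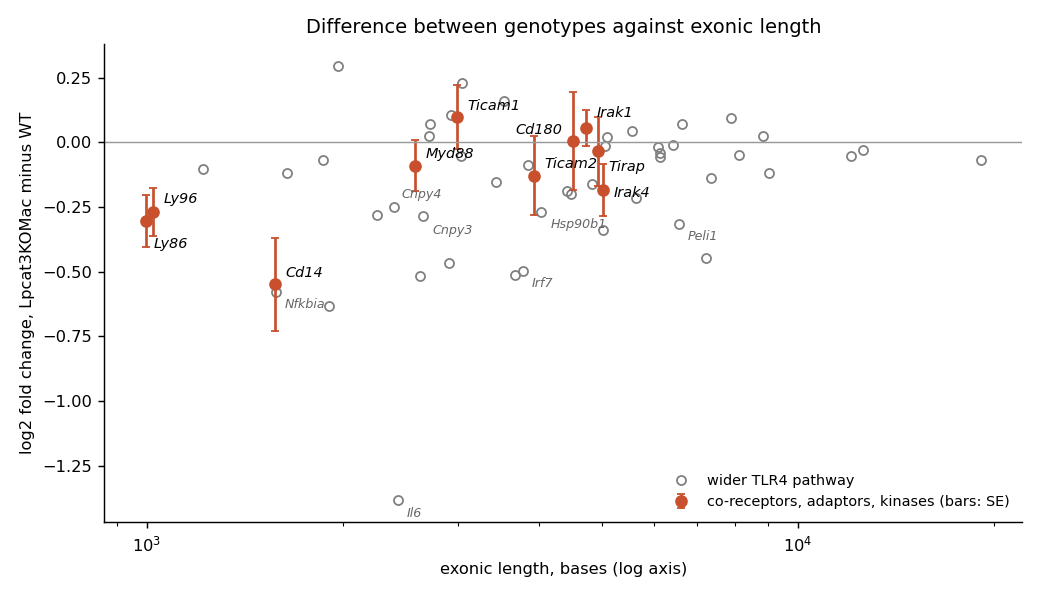
Log2 fold change (vertical axis, Lpcat3KOMac minus WT) against exonic length in bases (horizontal log axis) for the 10 genes (filled, bars are standard errors) and the 46 tested genes of the wider TLR4 pathway (open). The 3 genes of the 10 with at most 1572 bases lie below 0, and the 7 longer ones lie between -0.18 and 0.10.

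The wider TLR4 pathway was read from 5 lists of 47 genes in all, of which 46 were tested (Ifnb1 had at most 1 count in a library). None was called by the quasi-likelihood test of edgeR after Benjamini-Hochberg adjustment or by DESeq2. At an unadjusted p under 0.05 there were 6 of the 46, all lower in Lpcat3KOMac cells, where 1.57% of all genes tested passed in this direction. Also 6 of the 46 were lower in every Lpcat3KOMac library, as were 5.2% of all genes, and 5 genes were common to both counts. The number at an unadjusted p under 0.05 depended on the setting. It was 1 with total counts (beside 1.97% of all genes in either direction) and 2 with the replicate block (0.855%). With 1 mouse left out it ran from 1 without Lpcat3KOMac mouse 2 (1.48%) to 9 without WT mouse 1 (12.3%). Without the 2 hepatocyte-rich libraries it was 11 (10.96%). Log2 fold changes were below 0 for 35 genes (76.1%) and above 0 for 11, with a median of -0.09, beside 59.9% below 0 and a median of -0.04 over all genes.

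Of the 6 genes of LPS recognition and receptor folding, 3 had an unadjusted p under 0.05 and the same 3 did not overlap, beside the shares of 1.57% and 5.2% of all genes, and the median log2 fold change was -0.26. The lists are short, and their counts are read against these shares as a description only. Hsp90b1, which encodes GRP94, the chaperone that folds TLR4, measured 1421, 1252 and 1297 CPM in WT mice 1 to 3, against 1094, 1069 and 1130 CPM in Lpcat3KOMac mice 1 to 3. The genotypes did not overlap, and the log2 fold change was -0.27 (SE 0.087). Cnpy3 and Cnpy4, helpers of TLR folding that were named after their values had been seen, were lower without overlap as well. Cnpy3 measured 108, 129 and 113 CPM in WT mice, against 93.6, 93.0 and 101 CPM in Lpcat3KOMac mice (log2 fold change -0.28, SE 0.094). Cnpy4 measured 23.3, 25.2 and 26.2 CPM in WT mice, against 21.6, 20.02 and 21.1 CPM in Lpcat3KOMac mice (log2 fold change -0.25, SE 0.089). These 3 genes and Ly96, set together after their values had been seen, had log2 fold changes between -0.28 and -0.25. Tlr4 was at 0.04, and the 7 Kupffer cell markers had a median of -0.24. Aoah and Lbp, the remaining genes of the list, were at -0.47 and -0.16 and overlapped between genotypes.

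Downstream of MyD88, 1 of 14 genes passed the unadjusted threshold (1.57% of all genes in this direction) and the median was -0.03. It was Peli1, a ubiquitin ligase that acts on IRAK1, at 98.3, 120.4 and 106 CPM in WT and at 87.2, 76.6 and 97.0 CPM in Lpcat3KOMac mice (log2 fold change -0.32, SE 0.13). Ube2n, a ubiquitin-conjugating enzyme and likewise named after its values were seen, did not overlap either, with a log2 fold change of -0.09 (SE 0.071). Tab2, the highest of the list in CPM and an adaptor of the kinase TAK1, had a log2 fold change of -0.06 (SE 0.093). Downstream of TRIF, 1 of 8 genes passed, beside the same 1.57%, and the median was -0.09. It was Irf7, a transcription factor of the interferon response, at 714, 694 and 546 CPM in WT and at 567, 383 and 436 CPM in Lpcat3KOMac mice, with overlap and a log2 fold change of -0.50 (SE 0.19).

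Of 11 inhibitors of the pathway 1 passed the unadjusted threshold, beside 1.57% of all genes, and the median was -0.10. Nfkbia, which encodes the NF-kappaB inhibitor IkappaB-alpha and is itself induced by NF-kappaB, measured 239, 290.4 and 264 CPM in WT mice 1 to 3, against 208, 143 and 181 CPM in Lpcat3KOMac mice 1 to 3. It did not overlap between genotypes, with a log2 fold change of -0.58 (SE 0.16, unadjusted p of 0.0121, adjusted p of 0.9999 by the quasi-likelihood test of edgeR after Benjamini-Hochberg adjustment). Trafd1, the highest inhibitor of the list in CPM, had a log2 fold change of -0.20 (SE 0.11). Of 8 LPS-induced transcripts, 0 of the 7 tested passed and the median was -0.34, with wide spread between mice. The cytokine Il6, the lowest by p, measured 1.69, 4.25 and 3.50 CPM in WT mice, against 2.14, 0.617 and 0.85 CPM in Lpcat3KOMac mice (log2 fold change -1.38, SE 0.59). The cytokine Il1b, the highest in CPM, measured 80.1, 262 and 279 CPM in WT mice, against 144, 90.5 and 167 CPM in Lpcat3KOMac mice (log2 fold change -0.63, SE 0.51). Both overlapped between genotypes.

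Across the 6 libraries, the closest likeness between 2 of the 10 genes was that of Cd14 and Ly96, with a Pearson correlation of log2 CPM of 0.95, followed by Myd88 and Irak4 at 0.88. The most opposed were Ticam1 and Irak4 at -0.89 and Ly96 and Irak1 at -0.81. These values describe 6 libraries that share their scaling and the difference between genotypes. Among 9061 other genes with a mean above 10 CPM, the pattern most like that of Cd14 was Bnip2 (0.994), then Ensa (0.993). For Ly96 it was Cst3 (0.988) and Unc119 (0.986), and for Ly86 Brd7 (0.995) and Anapc11 (0.994). For Cd180 it was Cntln (0.992) and Arrb1 (0.991). For the adaptors it was Smc1a (0.988) and Was (0.980) with Myd88, Map4k3 (0.967) and Foxk2 (0.955) with Ticam1, Tmem63a and Pilrb1 (both 0.993) with Ticam2 and Nomo1 (0.978) and Mtmr1 (0.969) with Tirap. For the kinases it was Galns (0.983) and Elk3 (0.976) with Irak1 and Zkscan6 and Ift22 (both 0.985) with Irak4. For each gene these are the 2 highest of 9061 correlations over only 6 libraries. How high such a search alone would reach was not tested, so the pairs are a description.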

How the data were processed

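RNA sequencing counts of liver F4/80-positive cells from 3 WT and 3 Lpcat3KOMac mice were used. The authors deposited raw read counts per Ensembl gene, without normalization. According to the submitters' processing notes, Trimmomatic 0.36, STAR 2.5.2b, featureCounts (Subread 1.5.2) and GRCm38 were used. The strand setting and the treatment of multi-mapping reads are not given in the sources used here. The kit was NEBNext Ultra with poly-A selection. Of 49315 identifiers, 48970 had a GENCODE M21 symbol, and gene positions and exonic lengths are those of the deposited tables.

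The genotypes were tested with edgeR 4.0.16, run in R 4.3.3 (TMM, default filter with a minimum count of 10, quasi-likelihood test with robust dispersion, genotype as the only term), with Benjamini-Hochberg adjustment over all 16134 genes tested and calls at an adjusted p under 0.05. SEs were taken as the size of the log2 fold change over the root of the F statistic. Ratios used counts plus 0.5. Alternatives were DESeq2's size factors, total counts, limma-voom (limma 3.58.1), DESeq2 1.42.0, no filter, a minimum of 10 counts in each library, the replicate number as a block, hepatocyte transcripts (6 markers) as a covariate, a length offset (lowess, span 0.3), a ratio pseudocount of 5 and leaving out each mouse. Chosen after seeing the data were leaving out the 2 hepatocyte-rich libraries, length-corrected values and ratios to Adgre1. The scripts were tested on simulated data.

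The genes, lists and tests were chosen with earlier results of these data known. Named were all 10 genes, Tlr4, Lpcat3 and Lyz2, any gene called in the wider lists or else the gene with the smallest p and that with the highest mean CPM in each list, and the 2 genes with the most similar pattern. P-values cover the spread between these 6 mice, and the counting error given covers read sampling alone. Promoter windows are from RefSeq (GRCm38.p6). Lipid, PCR and in vivo measurements were not analysed here.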

Additional observations from a re-analysis of the deposited data

How the results depend on the processing

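None of the 10 genes and none of the wider pathway genes was called under any of the 16 alternatives fitted, and the log2 fold changes of Cd14 (-0.66 to -0.39), Ly96 (-0.30 to -0.18), Ly86 (-0.40 to -0.21), Myd88, Ticam1, Ticam2, Irak1 and Irak4 kept their direction in all 16. The median of the 10 stayed below 0, between -0.21 and -0.02, and was highest with total counts, which moved the median of all genes from -0.04 to 0.06. The direction of Cd180 and Tirap depended on the setting. Cd180 was at -0.0023 without the low-count filter, at -0.14 without the 2 hepatocyte-rich libraries, and leaving out each mouse gave -0.17 to 0.15. Tirap was at 0.063 with total counts and at 0.026 without the 2 hepatocyte-rich libraries, and leaving out each mouse gave -0.098 to 0.092. With each mouse left out, the log2 difference of Cd180 to Tlr4 lay between -0.20 and 0.10 and that of Tirap to Myd88 between -0.049 and 0.19. The causes were not tested.

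The number of the 10 genes without overlap between genotypes was 3, against 7.49% of all genes in either direction. It was 5 with DESeq2's size factors (with Irak4 lower and Irak1 higher, 6.91% of all genes), 3 with total counts (Ly96 lower, Ticam1 and Irak1 higher, 6.37%), 5 with length-corrected values (6.30%) and 1 as ratios to Adgre1 (5.82%). It was 6 without the 2 hepatocyte-rich libraries, where 41.8% of all genes did not overlap. Leaving out 1 mouse gave 3 to 6, with 6 without WT mouse 1 (32.7% of all genes, against 11.3% to 16.4% without any other mouse). With total counts, 0 of the 10 had an unadjusted p under 0.05, and the length offset took Ly96 above it. Without the 2 hepatocyte-rich libraries, Cd14, Ly86 and Irak4 were under 0.05 by the edgeR test, beside 10.96% of all genes, and Ly96 was not. Same-numbered mice deviated from their group means with correlations of -0.30, -0.60 and 0.36, and the mice were taken as unpaired. The highest correlation, 0.67, was that of the 2 hepatocyte-rich libraries, so that these values cannot decide whether the numbers 1 to 3 pair the mice. In the replicate block fit the median of the 10 was -0.10, and 0 of the 10 had an unadjusted p under 0.05, beside 138 of all genes in place of 426. The smallest adjusted p of the 10 lay between 0.142 (without the 2 hepatocyte-rich libraries) and 1 over all alternatives. With 3 mice per genotype, intervals such as that of Cd180 leave room for differences of the size seen for Ly96 and Ly86.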

Other observations

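Some genes of the pathway were spread widely between mice of the same genotype. They were named after their values had been seen. Irak3, which encodes the macrophage inhibitor IRAK-M, measured 38.8, 133 and 65.4 CPM in WT mice 1 to 3, against 66.9, 19.9 and 79.3 CPM in Lpcat3KOMac mice 1 to 3. Tnfaip3, which encodes the NF-kappaB inhibitor A20, measured 45.5, 118 and 85.5 CPM in WT mice, against 76.0, 36.1 and 70.3 CPM in Lpcat3KOMac mice. In both genes WT mouse 1 and Lpcat3KOMac mouse 2 were the lowest of their genotype. The same held for Ikbke, a kinase of the interferon branch, at 76.9, 194 and 169 CPM in WT and at 175, 72.3 and 158 CPM in Lpcat3KOMac mice. It held as well for Acod1, which encodes the itaconate-forming enzyme of activated macrophages, at 12.6, 51.5 and 38.4 CPM in WT and at 33.9, 9.88 and 27.7 CPM in Lpcat3KOMac mice.

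Lbp, which encodes the LPS-binding protein that hepatocytes secrete, was the reverse within each genotype, at 55.4, 30.4 and 26.5 CPM in WT and at 32.9, 46.5 and 21.04 CPM in Lpcat3KOMac mice. So was Sigirr, an inhibitory receptor with the same kind of inner domain, at 6.57, 0.978 and 1.16 CPM in WT and at 3.24, 5.17 and 1.83 CPM in Lpcat3KOMac mice. The 6 hepatocyte markers summed to 20000, 1838 and 1771 CPM in WT and to 4658, 12770 and 4476 CPM in Lpcat3KOMac mice, highest in the same 2 mice, and their part in these values was not tested. Irak3, Tnfaip3, Ikbke, Acod1, Lbp and Sigirr all overlapped between genotypes.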
